A study of Mus musculus with 6 samples.

Results

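Fatty acid oxidation and ketogenesis were examined through 41 genes in the livers of mice with and without Med23 in hepatocytes, 24 hours after carbon tetrachloride (CCl4). The genes are a list of enzymes, transporters and regulators of the pathway, picked by name with earlier results of these data known, and make up 41 of the 24346 genes in the deposited table. Of the list, 5 genes serve the carnitine shuttle, 11 mitochondrial β-oxidation, 9 peroxisomal β-oxidation, 7 omega oxidation, 1 ketone body formation, and 8 fatty acid uptake, activation and control. MED23 is a subunit of Mediator, the complex that links transcription factors to RNA polymerase II, and RNA sequencing of whole liver was used to ask how its loss changed the transcriptome after acute injury. There were 3 control libraries (labelled wt, med23f/f mice, which carry the floxed gene) and 3 knockout libraries (labelled med23 ko, med23Δli mice, in which Albumin-cre deletes Med23 in hepatocytes). All 6 came from male C57/BL6 mice that were 8 weeks old. Each mouse, controls included, had received 0.6 µl of CCl4 per gram of body weight in sunflower oil by intraperitoneal injection 24 hours earlier, so no uninjured liver entered the comparison. The study reports marked necrosis in control livers at this time and very little in med23Δli livers. Serum levels of the liver enzymes ALT and AST were also lower in its knockouts. Injury therefore differed along with genotype in that study, and its part in the values below was not tested. The other cells of the liver keep Med23 in this model, and nothing in the labels says whether each library came from a separate mouse, so the p-values measure the spread between these libraries.

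Fatty acids enter the hepatocyte with the help of binding and transport proteins and are activated to acyl-CoA. Long-chain acyl groups then cross into mitochondria on carnitine and are shortened by β-oxidation, and the acetyl-CoA is either burned or turned into ketone bodies for other organs. Peroxisomes shorten very long and branched chains, whereas cytochromes of the Cyp4a family oxidize the far end of the chain in the endoplasmic reticulum. Many of these genes are known targets of the nuclear receptor PPARα, which drives the hepatic response to fasting.

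The table gives FPKM, fragments counted per kilobase of transcript and scaled to the mapped fragments of the library, which scales each level by gene length and library size. The number of reads behind a value is not known from it. Fold changes are on the scale of log2(FPKM + 0.1), and a gene was called changed at an adjusted p under 0.05 in limma, which was fitted to the 11956 genes whose mean over the 6 libraries was 0.5 FPKM or more. Med23 itself was at 3.42, 2.97 and 4.14 FPKM in the 3 control libraries and at 3.40, 3.40 and 2.91 FPKM in the 3 libraries labelled med23Δli. The groups overlapped (log2 fold change −0.11), so the level of the targeted gene in whole liver did not check the genotype labels, and the directions below rest on those labels. The level covers the whole gene, including any exons that remain after deletion, and all liver cells. The 14 hepatocyte marker genes were abundant in every library, summing to between 35541 and 47234 FPKM in controls and between 32536 and 39567 FPKM in the knockouts. The 10 most abundant genes held 17.1% to 20.3% of the summed FPKM in controls and 11.9% to 13.7% in med23Δli libraries.

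All 41 genes passed the expression filter. After CCl4, 8 of them rose in the med23Δli livers, 2 fell, and 31 did not pass the test. Over all genes tested, 11.6% rose and 9.48% fell, against 19.5% and 4.88% of the 41, and the shares are given as a description because of how the list was chosen. The 8 that rose were Acadm, Decr1, Crot, Acaa1a, Decr2, Cyp4a31, Aldh3a2 and Acsl1, and the 2 that fell were Cyp4a12b and Creb3l3. With a change of more than 2-fold also required, 3 rose (Acadm, Crot and Cyp4a31; background 4.45%) and 1 fell (Cyp4a12b; background 3.45%). The median log2 fold change was 0.38 over the 41 genes and 0.02 over all genes tested, and 31 of the 41 had a positive value (29 to 33 over the alternatives). The 6 libraries split by group without overlap, higher in med23Δli, for 14 of the 41 genes (34.1%; background 23.3%) and, lower in med23Δli, for 4 (9.76%; background 20.4%).

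**Figure D1:**
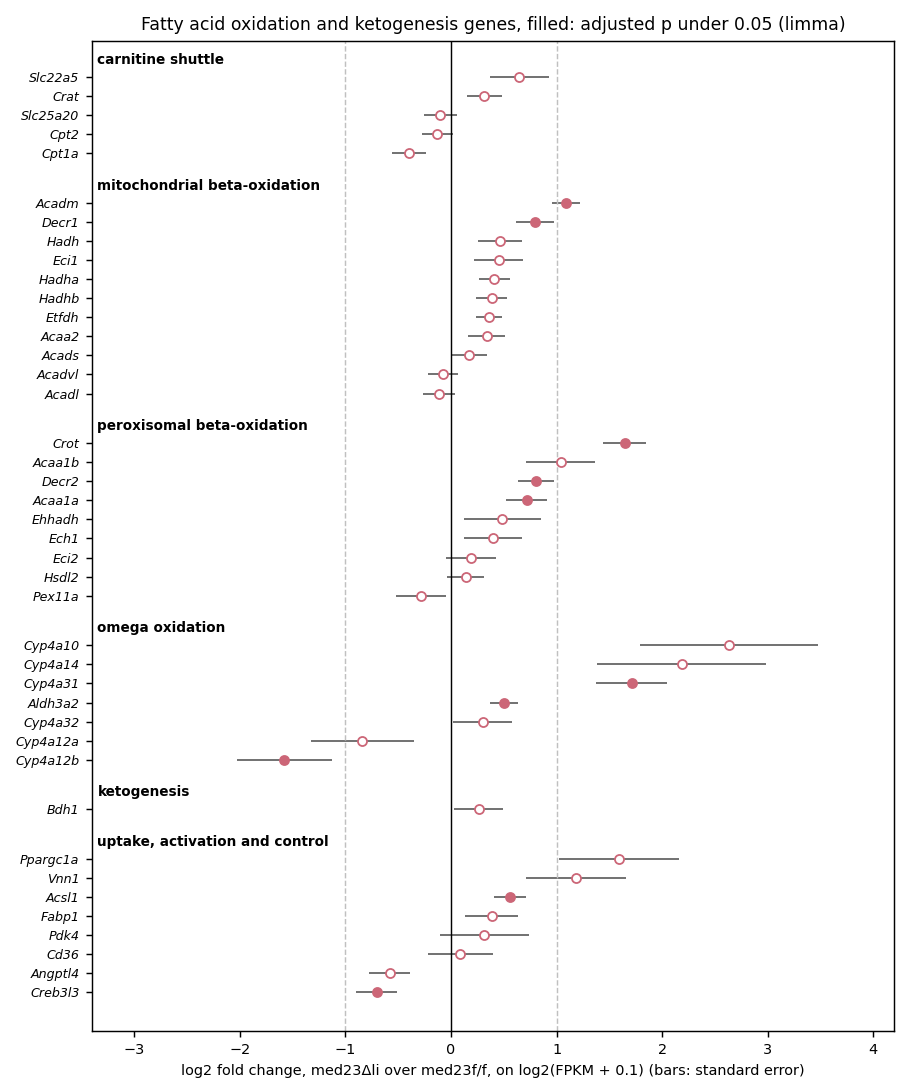
Fitted log2 fold change of each of the 41 genes (x axis, med23Δli over med23f/f on log2(FPKM + 0.1), bars show the standard error), ordered within the steps of the pathway (y axis); filled points passed an adjusted p of 0.05 and dashed lines mark a change of 2-fold. The filled points are 8 to the right of 0 and 2 to the left, and the widest bars belong to Cyp4a10 and Cyp4a14, at 2.63 and 2.18.

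The carnitine shuttle carries long-chain acyl groups across the mitochondrial membranes, and none of its 5 genes passed the test in limma. At an unadjusted p under 0.05, 1 was higher and 1 was lower, where 20.5% of all genes tested were higher and 17.1% lower. Cpt1a encodes the outer-membrane acyltransferase that controls entry into the mitochondrion. It was at 67.3, 84.1 and 72.4 FPKM in controls and at 61.6, 61.9 and 46.7 FPKM in med23Δli livers. The 2 groups did not overlap, but the log2 fold change of −0.40 ± 0.161 (SE) had an adjusted p of 0.111 (limma), which reached 0.0459 only after quantile normalization. Cpt2, the inner-membrane partner, averaged 58.0 ± 5.64 FPKM (SD, n = 3) in controls and 53.2 ± 7.15 FPKM in the knockouts. Slc25a20, which exchanges acylcarnitine for carnitine across the inner membrane, averaged 53.3 ± 3.00 and 50.2 ± 8.27 FPKM, so both of these steps lay within the spread of the libraries. Slc22a5, the carnitine importer of the cell surface, averaged 10.7 ± 3.44 and 16.6 ± 4.63 FPKM (adjusted p = 0.133), and 6.94% of its 150-base windows also occur in Slc22a21. Crat, which moves short acyl groups to and from carnitine, averaged 15.4 ± 1.75 and 19.2 ± 3.18 FPKM (adjusted p = 0.206).

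Among the 11 genes of mitochondrial β-oxidation, 2 rose (18.2%, against 11.6% of all genes tested) and none fell (9.48% of all genes), and the median log2 fold change was 0.38. Acadm, on chr3:153922357-153944632 of mm10 (minus strand), encodes the acyl-CoA dehydrogenase for medium chains, the first enzyme of each cycle for those chains. Its level was 114, 112 and 104 FPKM in controls and 223, 260 and 221 FPKM in med23Δli livers. Every knockout library lay far above every control, and within each group the libraries differed little. The ratio of the means was 2.13, and the log2 fold change was 1.09 ± 0.129 (adjusted p = 0.00299), and the call held in all 15 alternative analyses. Its sister enzymes for other chain lengths gave different values. Acadl, the long-chain dehydrogenase, was at 137, 123 and 126 FPKM in controls and at 126, 134 and 99.2 FPKM in the knockouts. Acadvl, the very-long-chain dehydrogenase, was at 191, 233 and 202 FPKM against 211, 204 and 178 FPKM. Both pairs of groups overlapped, with log2 fold changes of −0.11 and −0.07. Acads, for short chains, averaged 63.2 ± 12.2 and 70.7 ± 5.92 FPKM (adjusted p = 0.475), and no test between these 4 genes was made.

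Decr1 (chr4:15917240-15945507, minus strand) encodes the dienoyl-CoA reductase that mitochondria need for unsaturated chains. It was at 35.6, 31.6 and 34.7 FPKM in controls and at 68.6, 66.0 and 45.4 FPKM in med23Δli livers, where the third library was the lowest but still above every control. The log2 fold change was 0.80 ± 0.178 (adjusted p = 0.0203). Leaving out med23Δli replicate 1 or replicate 2 ended the call (adjusted p = 0.0867 at most). The other gene for unsaturated chains, the isomerase Eci1, averaged 72.3 ± 17.7 and 98.7 ± 22.6 FPKM and overlapped between groups.

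Hadha and Hadhb encode the α and β subunits of the trifunctional protein, which carries out the later steps of the cycle on long chains, and the genes lie head to head on chromosome 5. Hadha was at 79.5, 76.5 and 71.8 FPKM in controls and at 112, 107 and 85.9 FPKM in the knockouts. Hadhb was at 81.9, 82.9 and 92.0 FPKM against 122, 120 and 95.1 FPKM. Neither pair of groups overlapped, the third knockout library was the lowest of its group for both subunits, and the ratios of the means were 1.34 and 1.31. Neither passed the test (adjusted p = 0.0758 and 0.0927, limma). Of the 150-base windows in Hadhb transcripts, 11.8% also occur in Gm13910, so part of its signal could be split between them. Etfdh, which passes electrons from the dehydrogenases to ubiquinone, averaged 74.2 ± 3.80 and 95.5 ± 7.55 FPKM, without overlap (adjusted p = 0.0747). Hadh, the dehydrogenase for shorter hydroxyacyl chains, averaged 49.6 ± 14.1 and 66.7 ± 1.92 FPKM, also without overlap (adjusted p = 0.140), and passed at 0.0431 when med23f/f replicate 2 was left out. Acaa2, the thiolase of the matrix and the most abundant of the 11 genes, averaged 414 ± 77.5 and 518 ± 43.4 FPKM (adjusted p = 0.193). Summed over all 11 genes, the level was 1177 to 1436 FPKM in controls and 1484 to 1797 FPKM in the knockouts. The sums of the other classes overlapped between groups. The carnitine shuttle summed to 202 to 226 against 162 to 222 FPKM, and peroxisomal oxidation to 509 to 828 against 778 to 1250 FPKM. Omega oxidation summed to 63.1 to 147 against 111 to 372 FPKM, and uptake, activation and control, most of it Fabp1, to 3667 to 4263 against 3333 to 5954 FPKM.

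The 2 start sites of Hadha and Hadhb lie 86 bases apart in GENCODE on mm10, at chr5:30155162 and chr5:30155248. The RefSeq promoter window of Hadhb (GRCm38.p6, chr5:30155003-30155302, plus strand) spans both, and it is shown because it holds the annotated starts of both genes; capitals mark the bases from one start to the other.
Hadhb: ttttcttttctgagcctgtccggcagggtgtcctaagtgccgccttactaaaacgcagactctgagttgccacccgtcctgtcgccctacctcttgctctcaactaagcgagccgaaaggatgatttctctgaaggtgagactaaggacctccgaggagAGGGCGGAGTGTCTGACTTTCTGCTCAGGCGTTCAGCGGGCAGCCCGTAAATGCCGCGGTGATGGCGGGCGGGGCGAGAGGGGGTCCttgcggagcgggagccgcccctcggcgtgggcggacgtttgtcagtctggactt

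**Figure D2:**
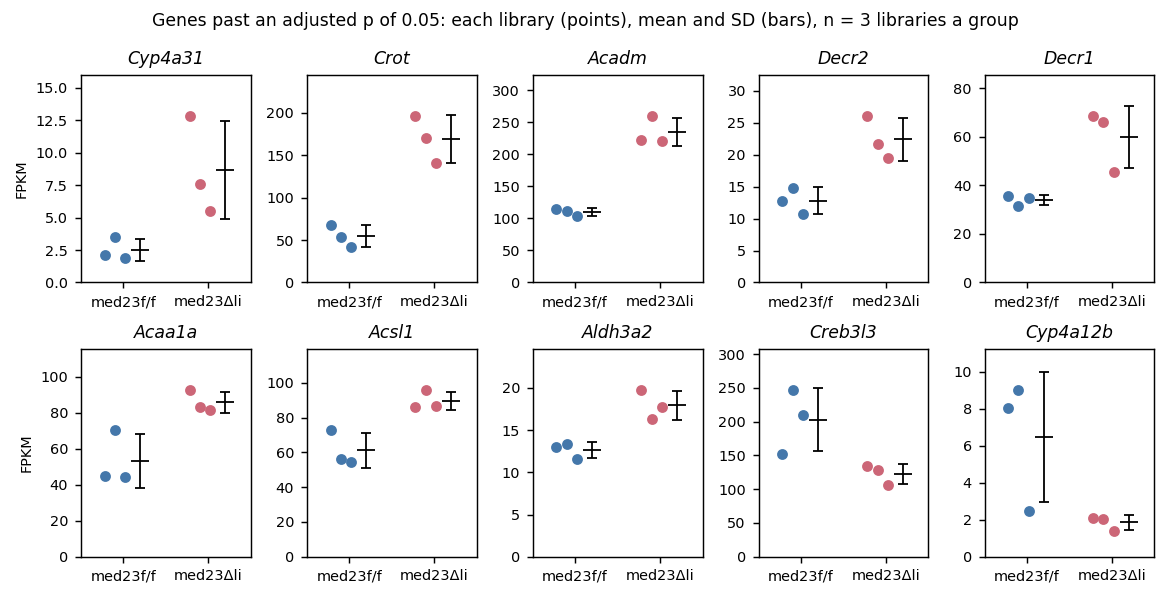
FPKM in each library (y axis, starting at 0) of the 10 genes that passed an adjusted p of 0.05, by group (x axis), with points for libraries and bars for the mean and SD of 3 libraries. The groups do not overlap in any of the 10 panels, and Acadm sits at 104 to 114 FPKM in controls and at 221 to 260 FPKM in med23Δli libraries.

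Peroxisomal β-oxidation held 3 genes that rose among its 9 (33.3%, against 11.6% of all genes tested) and none that fell (9.48% of all genes), with a median log2 fold change of 0.48. Crot, on chr5:8966033-8997324 (minus strand), encodes the octanoyltransferase that loads shortened chains onto carnitine for export from the peroxisome. Its level was 67.9, 53.5 and 42.1 FPKM in controls and 196, 170 and 140 FPKM in med23Δli livers. The lowest knockout library was thus more than 2-fold above the highest control. The means stood at a ratio of 3.10, the log2 fold change was 1.65 ± 0.205 (adjusted p = 0.00356), and the call held in all 15 alternatives. Decr2 (chr17:26081208-26090337, minus strand), the peroxisomal counterpart of Decr1, was at 12.8, 14.9 and 10.7 FPKM against 26.0, 21.7 and 19.5 FPKM. Its log2 fold change of 0.81 ± 0.172 was close to that of Decr1 (adjusted p = 0.0176), and the call was likewise lost without med23Δli replicate 1 or replicate 2 (adjusted p = 0.0769 at most).

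Acaa1a and Acaa1b encode closely related peroxisomal thiolases, and both lie on chromosome 9. Acaa1a was at 44.9, 70.6 and 44.5 FPKM in controls and at 92.3, 83.2 and 81.5 FPKM in the knockouts. It rose by 0.72 ± 0.195 on the log2 scale (adjusted p = 0.0375), but lost the call in 10 of the 15 alternatives. Those included the omission of any 1 library other than med23f/f replicate 2 (adjusted p from 0.0652 to 0.127). Acaa1b was at 63.8, 151 and 96.7 FPKM against 275, 190 and 155 FPKM, so that the lowest knockout library lay just above the second control. Its log2 fold change of 1.04 ± 0.327 was larger than that of Acaa1a and did not pass (adjusted p = 0.0568). Without med23f/f replicate 2 it passed at 0.0254. The thiolases share sequence, 11.3% of the 150-base windows of Acaa1b and 3.88% of those of Acaa1a, so reads from one may have been assigned to the other.

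Of the remaining peroxisomal genes, Ehhadh, the bifunctional enzyme of the middle steps, was at 47.8, 93.9 and 96.1 FPKM in controls and at 163, 107 and 67.8 FPKM in the knockouts. The first knockout library was the highest of the 6 and the third lay below 2 of the controls (adjusted p = 0.364). The isomerases Ech1 and Eci2 averaged 165 ± 49.8 against 218 ± 62.3 FPKM and 112 ± 30.8 against 126 ± 24.5 FPKM, and both overlapped. Hsdl2, a dehydrogenase-like protein of the peroxisome, averaged 31.0 ± 5.73 and 33.9 ± 4.58 FPKM. Pex11a, which promotes division of the organelle, was the only one of the 9 with a negative value (−0.28, adjusted p = 0.417).

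Of the 7 genes of omega oxidation, 2 rose (28.6%, against 11.6% of all genes tested), 1 fell (14.3%, against 9.48%) and 4 did not pass. The 6 Cyp4a genes, which encode fatty acid ω-hydroxylases, lie together within 323 kb of chromosome 4 (chr4:115299046-115621602). Cyp4a31 was at 2.13, 3.50 and 1.88 FPKM in controls and at 12.8, 7.61 and 5.50 FPKM in med23Δli livers. Its log2 fold change was 1.71 ± 0.335 (adjusted p = 0.0136), the ratio of the means was 3.45, and the call held in all 15 alternatives. Cyp4a12b moved the other way, from 8.02, 8.99 and 2.48 FPKM in controls to 2.12, 2.07 and 1.39 FPKM in the knockouts. The third control lay close to the knockouts, and the fall of 1.58 ± 0.452 on the log2 scale (adjusted p = 0.0438) lost its call in 8 of the 15 alternatives. Without any 1 library other than med23f/f replicate 3, its adjusted p was 0.0952 to 0.136. Its neighbour Cyp4a12a was at 62.7, 67.9 and 22.3 FPKM against 15.1, 26.0 and 42.0 FPKM, with groups that overlapped (log2 fold change −0.84, adjusted p = 0.244), and it passed at 0.0369 when med23f/f replicate 3 was left out. These 2 genes share sequence with each other, 25.9% and 25.6% of their 150-base windows, so their separate values are uncertain. For Cyp4a10, Cyp4a31 and Cyp4a32 the shares of windows that occur in another gene were 4.04%, 3.54% and 6.96%.

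The largest fitted changes of the 41 genes belonged to Cyp4a10 and Cyp4a14, classical readouts of PPARα activity, and neither passed the test. Cyp4a10 was at 6.05, 28.8 and 3.92 FPKM in controls and at 141, 58.0 and 20.6 FPKM in med23Δli livers. Cyp4a14 was at 5.18, 16.3 and 13.0 FPKM against 174, 37.5 and 16.1 FPKM. In both genes the first knockout library stood far above the rest, whereas the third lay below the second control. The log2 fold changes were 2.63 ± 0.842 (adjusted p = 0.0592) and 2.18 ± 0.802 (adjusted p = 0.0874). Without med23f/f replicate 2, Cyp4a10 passed at 0.0244. Cyp4a32 averaged 6.57 ± 2.41 and 7.69 ± 0.451 FPKM (adjusted p = 0.458). Aldh3a2 (chr11:61223417-61267464, minus strand), the dehydrogenase that oxidizes fatty aldehydes to acids, was at 13.0, 13.4 and 11.5 FPKM against 19.7, 16.3 and 17.8 FPKM. The groups did not overlap and the log2 fold change was 0.50 ± 0.134 (adjusted p = 0.0356), a call lost in 6 of the 15 alternatives, among them the omission of any 1 library other than med23f/f replicate 2 (adjusted p from 0.0544 to 0.153).

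**Figure D3:**
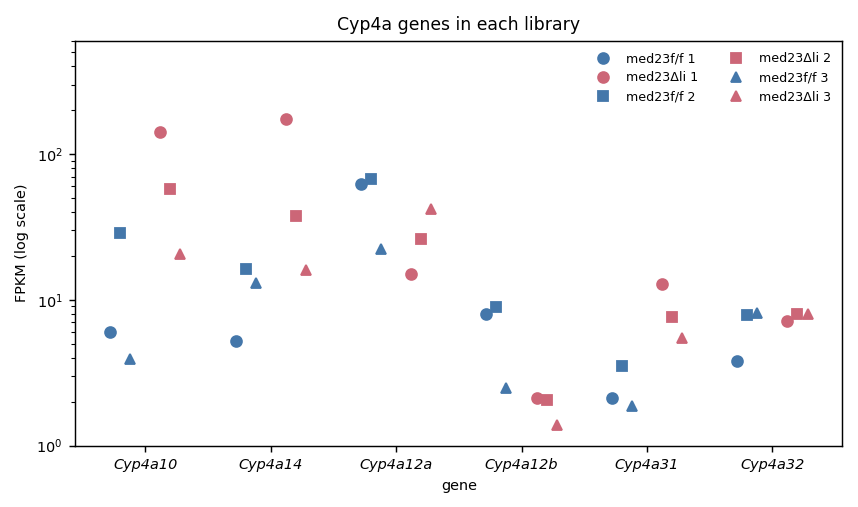
FPKM on a log scale (y axis) of the 6 Cyp4a genes (x axis) in each of the 6 libraries, blue for med23f/f and red for med23Δli, with circles, squares and triangles for replicates 1, 2 and 3. Cyp4a10 and Cyp4a14 range from 20.6 to 141 and from 16.1 to 174 FPKM within the knockouts, and Cyp4a12b lies lower in the knockouts while Cyp4a31 lies higher.

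Ketone body formation was represented by Bdh1, which interconverts acetoacetate and β-hydroxybutyrate. It was at 90.0, 85.9 and 57.4 FPKM in controls and at 110, 99.4 and 69.9 FPKM in med23Δli livers. The groups overlapped and Bdh1 did not pass in limma (log2 fold change 0.26 ± 0.231, adjusted p = 0.439).

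Among the 8 genes of uptake, activation and control, 1 rose, 1 fell and 6 did not pass. The shares of 12.5% each way lay near the 11.6% and 9.48% of all genes tested. Acsl1 (chr8:46471037-46536051, plus strand), the main hepatic acyl-CoA synthetase for long chains, was at 72.9, 56.0 and 54.6 FPKM in controls and at 86.2, 95.6 and 86.6 FPKM in the knockouts. Its log2 fold change was 0.56 ± 0.150 (adjusted p = 0.0359), and 7 of the 15 alternatives ended the call, among them the omission of any 1 library other than med23f/f replicate 1 (adjusted p from 0.0581 to 0.130). Creb3l3 (chr10:81084324-81098874, minus strand), a liver transcription factor of the fasting response that lies in the membrane of the endoplasmic reticulum, was at 153, 246 and 210 FPKM against 134, 128 and 106 FPKM. It fell by 0.71 on the log2 scale (SE 0.197, adjusted p = 0.0402), a call lost in 8 alternatives. It was lost without any 1 library other than med23f/f replicate 1, at an adjusted p from 0.0643 to 0.128. Angptl4, a secreted inhibitor of lipoprotein lipase, was at 75.1, 98.3 and 76.0 FPKM in controls and at 65.8, 59.0 and 43.2 FPKM in the knockouts. Those groups did not overlap either, the log2 fold change was −0.58 ± 0.193 (adjusted p = 0.0662), and it passed after quantile normalization (adjusted p = 0.0290).

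Ppargc1a, the coactivator PGC-1α, was at 2.33, 0.645 and 4.40 FPKM in controls and at 5.11, 7.64 and 5.41 FPKM in the knockouts (log2 fold change 1.59 ± 0.570, adjusted p = 0.0819). Vnn1, a pantetheinase that responds to PPARα, averaged 0.934 ± 0.622 and 2.10 ± 0.877 FPKM (adjusted p = 0.111). Ppargc1a passed at 0.0163 without med23f/f replicate 3, and Vnn1 at 0.0425 without med23f/f replicate 2. Both lay near the floor of the filter in part of the controls, where the pseudocount compresses a fold change. Fabp1, the abundant fatty acid binding protein of the hepatocyte cytosol, was at 3420, 3850 and 3300 FPKM against 5640, 5568 and 3079 FPKM, so the first and second knockout libraries were the highest of the 6 and the third the lowest (adjusted p = 0.294). Pdk4, the kinase that turns off pyruvate dehydrogenase, averaged 12.5 ± 5.61 and 15.5 ± 6.67 FPKM. Cd36, the fatty acid translocase, averaged 3.82 ± 0.801 and 4.27 ± 1.94 FPKM.

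The knockout libraries were not alike in these genes. Within the med23Δli group, replicate 3 was the lowest library for 34 of the 41 genes (82.9%), against 48.8% of all genes tested, and it was the lowest for 11 of 11 mitochondrial and 5 of 5 carnitine shuttle genes. Replicate 1 was the highest for 27 of the 41 (65.9%, against 32.3% of all genes tested). Among the controls, replicate 2 was the highest for 24 of the 41 (58.5%, against 31.3%). The orders are given as counts with no test, because genes of 1 library are not independent of each other.

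**Figure D4:**
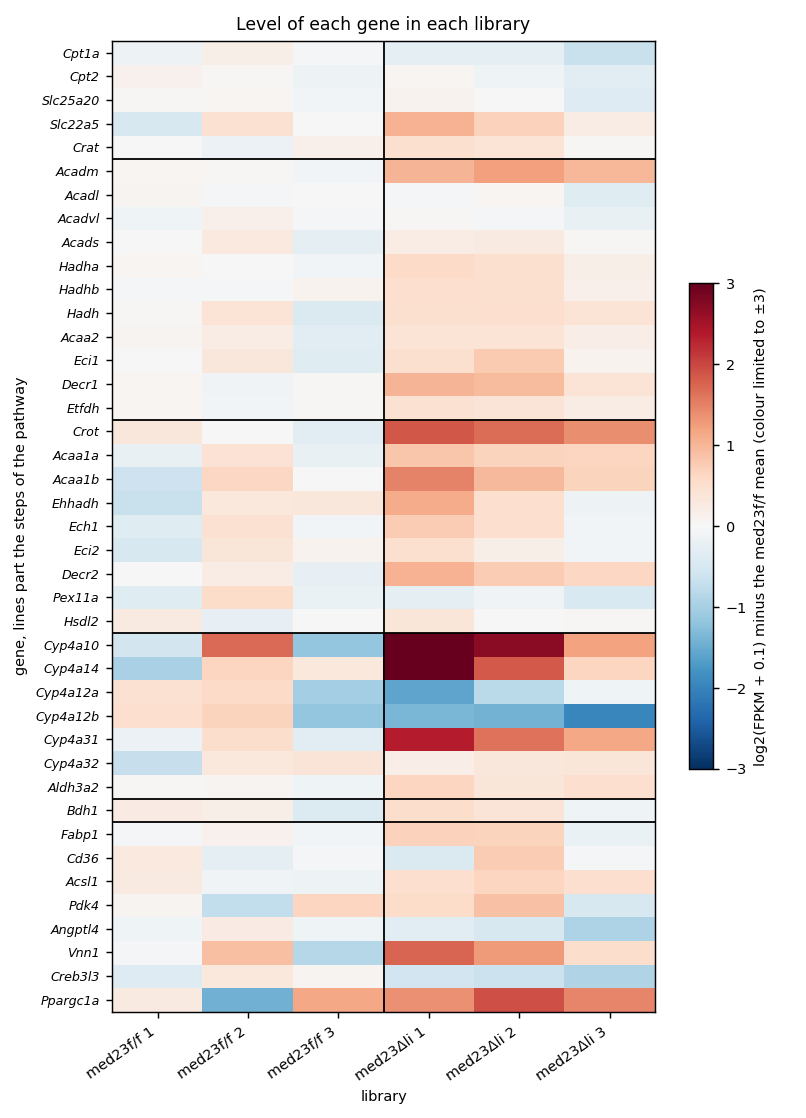
Level of the 41 genes (y axis, lines part the steps of the pathway) in the 6 libraries (x axis), as log2(FPKM + 0.1) minus the mean of the 3 control libraries, red for higher and blue for lower. Acadm and Crot are red in all 3 med23Δli libraries, whereas Cyp4a10, Cyp4a14 and Acaa1b are darkest in med23Δli replicate 1, and replicate 3 is the lowest of its group for 34 of the 41 genes.

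Promoter windows of 300 bases, from 250 before to 50 after the start, were found in the RefSeq table (GRCm38.p6) for 31 of the 41 genes, as 34 windows. PPARα binds, with its partner RXR, to pairs of AGGTCA in the same direction with 1 base between them, so both strands were searched. The exact pair was in 0 of the 34 windows and in 0.0396% of all 32851 windows of the table. The looser pair, with AGGNCA in place of each AGGTCA, was in 1 of the 34, that of Fabp1 (0.381% of all windows), where it lies 67 bases before the start on the minus strand as AGGCCATAGGTCA. A single AGGTCA, which the exact pair also contains, was in 6 of the 34 windows (16.3% of all windows), those of Acadm, Acadvl, Cd36, Cpt1a, Creb3l3 and Fabp1. Of these 6 genes, Acadm rose, Creb3l3 fell and the others did not pass the test. Crot, with the largest fold change among the genes that rose and had a window, had none of the motifs in it. The 3 windows below show the looser pair, the single motif beside the strongest mitochondrial change, and a window without a match; capitals mark the pair in Fabp1 (chr6:71199629-71199928, plus strand) and the single motif in Acadm (chr3:153944594-153944893, minus strand), and Crot (chr5:8997097-8997396, minus strand) has no capitals.
Fabp1: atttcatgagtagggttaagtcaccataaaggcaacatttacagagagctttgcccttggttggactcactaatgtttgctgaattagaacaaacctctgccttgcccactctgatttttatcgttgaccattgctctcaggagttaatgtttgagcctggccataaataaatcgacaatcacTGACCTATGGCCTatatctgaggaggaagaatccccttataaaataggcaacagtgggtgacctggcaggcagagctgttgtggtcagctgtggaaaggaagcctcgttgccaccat
Acadm: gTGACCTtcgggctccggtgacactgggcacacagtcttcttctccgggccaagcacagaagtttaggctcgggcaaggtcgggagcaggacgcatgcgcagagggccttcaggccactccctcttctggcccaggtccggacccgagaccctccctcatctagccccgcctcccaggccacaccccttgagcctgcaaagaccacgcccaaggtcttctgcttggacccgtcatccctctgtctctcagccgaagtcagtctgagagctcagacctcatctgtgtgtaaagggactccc
Crot: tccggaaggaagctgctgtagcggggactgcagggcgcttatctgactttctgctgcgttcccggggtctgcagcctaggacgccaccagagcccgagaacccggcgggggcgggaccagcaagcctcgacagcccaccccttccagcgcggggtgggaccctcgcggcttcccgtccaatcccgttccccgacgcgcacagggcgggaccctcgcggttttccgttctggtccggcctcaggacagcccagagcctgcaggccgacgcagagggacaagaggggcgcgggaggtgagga

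Other genes of the pathway, taken from lists written with earlier results of these data known, gave changes in both directions. Over all genes tested 11.6% rose and 9.48% fell, which is the background for the shares that follow. Of 21 further genes on the mitochondrial list, 4 rose (19%) and 2 fell (9.52%). Nudt7, which stood on that list although its product is a peroxisomal hydrolase of coenzyme A, rose from 61.2, 53.5 and 107 FPKM in controls to 190, 208 and 193 FPKM in the knockouts (adjusted p = 0.00824, limma). Acat1, a thiolase of ketone body and isoleucine metabolism, and Acad11, a further acyl-CoA dehydrogenase, rose with log2 fold changes of 0.89 and 0.66. Slc25a29, a mitochondrial carrier, fell from 3.08 ± 0.975 to 1.01 ± 0.234 FPKM (SD, n = 3), and Mlycd, which degrades the CPT1 inhibitor malonyl-CoA, fell from 40.4 ± 8.31 to 24.1 ± 1.04 FPKM. Among 31 further peroxisomal genes, 6 rose (19.4%) and 3 fell (9.68%). Cat, the catalase that removes peroxide made by peroxisomal oxidation, rose from 158 ± 45.9 to 399 ± 43.7 FPKM (adjusted p = 0.00790). Acox3, an acyl-CoA oxidase, and Acot8, a thioesterase, rose with log2 fold changes of 0.76 and 0.72. Nudt19, the carrier Slc25a17 and the import receptor Pex5 fell, with log2 fold changes of −0.70, −0.54 and −0.52.

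Of 12 further genes of omega oxidation and alcohol dehydrogenases, 4 rose (33.3%) and 2 fell (16.7%). Cyp4f15 and Cyp4f16, relatives of the Cyp4a hydroxylases, rose with log2 fold changes of 1.41 and 0.85, and Adh4 rose with 1.34. Cyp4b1 and Adh7 fell, with log2 fold changes of −1.50 and −1.76. Among 20 further genes of uptake and activation, 3 rose (15%) and 2 fell (10%), shares near the background. The risers were the medium-chain synthetases Acsm5, Acsm3 and Acsm1, and the genes that fell were Slc27a3 and Fabp7. Slc27a3, of the fatty acid transport protein family, was at 3.00, 3.51 and 3.31 FPKM in controls and at 0.681, 0.412 and 1.01 FPKM in the knockouts.

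Of 35 regulators and PPARα-responsive genes, 6 rose (17.1%) and 4 fell (11.4%). Pparg, a lipogenic relative of PPARα that is low in normal liver, rose from 1.19 ± 0.226 to 6.29 ± 2.04 FPKM (log2 fold change 2.28, adjusted p = 0.00237). Lpin1, a phosphatase and coactivator, and Rxrb, a partner of nuclear receptors, rose with log2 fold changes of 1.38 and 0.91. The lipid droplet genes Plin2 and Cidec fell. Plin2 went from 2200 ± 321 to 851 ± 180 FPKM (adjusted p = 0.00579), and Cidec from 47.8 ± 29.2 to 5.36 ± 3.93 FPKM (adjusted p = 0.0161). Gpt2, an alanine aminotransferase, fell by 1.39 on the log2 scale. Of the 27 further pathway genes named, the calls of Nudt7, Slc25a29, Cat, Acox3, Cyp4f15, Cyp4b1, Acsm3, Slc27a3, Pparg, Cidec, Gpt2 and Plin2 held in all 15 alternatives. Each of the other 15 lost its call without at least 1 library, at adjusted p-values from 0.0524 to 0.151.

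Markers of liver zones and of other cells also differed between the groups. Of 11 pericentral hepatocyte genes tested, 5 rose and none fell, and the summed level of the list was 511 to 659 FPKM in controls and 1062 to 1197 FPKM in med23Δli livers. Of 12 periportal genes, 5 fell and none rose (2461 to 3367 against 1822 to 2337 FPKM). Of 11 endothelial genes, 10 fell and none rose (105 to 147 against 58.7 to 63.1 FPKM). Of 12 macrophage genes 1 rose and none fell, and of 11 stellate cell genes 2 fell and none rose. In bulk tissue fewer cells of a type and less RNA per cell cannot be told apart, and the part of these shifts in the values of the 41 genes was not tested. Of 14 general hepatocyte genes, none rose and 1 fell in limma, with 1 higher and 5 lower at an unadjusted p under 0.05 (20.5% and 17.1% of all genes).

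Adipocyte genes stood out in 1 library, med23Δli replicate 2. Adipoq was at 5.65 FPKM there and at most 0.0907 FPKM in the other 5 libraries, Cfd at 23.8 against at most 0.244 FPKM, and Plin1 and Ucp1 at 2.76 and 2.29 FPKM against 0 in every other library. The list of 15 summed to 34.8 to 63.5 FPKM in controls and 47.6 to 122 FPKM in the knockouts. Cd36, which adipocytes also express, was highest in that library at 6.46 FPKM, and its log2 fold change went from 0.09 to −0.25 when the library was left out. Without that library 3 of the 41 genes rose, Acadm, Crot and Cyp4a31, with log2 fold changes of 1.01, 1.63 and 1.76, and none fell (limma). Over all genes the same omission left 4.07% higher and 3.70% lower, so the calls dropped there too. At an unadjusted p under 0.05, 11 of the 41 were then higher and 4 lower, against 14.4% and 14.1% of all genes. The adjusted p-values of Acadm, Crot and Cyp4a31 were then 0.0179, 0.0176 and 0.0434, and the median log2 fold change of the 41 genes was 0.30. The globin gene Hba-a1 stood out in med23Δli replicate 1, at 18.0 FPKM against at most 4.77 FPKM in the other libraries. The other erythroid genes did not follow it. In that library Hba-a2 was at 11.7 FPKM and Alas2 at 10.9 FPKM, for each the lowest level in any library. Its erythroid sum of 40.5 FPKM was the lowest of the knockouts. The sums of the erythroid markers overlapped between groups, at 27.5 to 205 FPKM in controls and 40.5 to 69.4 FPKM in the knockouts, and their part in the result was not tested. Leaving out med23Δli replicate 1, where Adipoq, Plin1 and Ucp1 were at 0, also left 3 that rose and none that fell (limma), with 3.35% higher and 2.92% lower over all genes. At an unadjusted p under 0.05 there were 12 higher and 4 lower, against 14.7% and 13.1% of all genes.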

How the data were processed

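RNA from whole liver was sequenced by the authors on an Illumina platform as paired ends from total RNA. Per the labels and the study's methods, reads were checked with FastQC, aligned to mm10 with TopHat, and gene levels were computed with Cuffdiff; tool versions, Cuffdiff's options and strand handling are not given in the sources used here. The deposited table holds FPKM per gene and library. Its columns for the authors' own comparison (fold changes and p-values) were not used.

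From the FPKM values, log2(FPKM + 0.1) was fitted, for genes whose mean was 0.5 FPKM or more, by limma 3.58.1 (R 4.3.3) with a trend in the prior variance and no block, with Benjamini-Hochberg adjustment over all 11956 genes tested. For 3 libraries against 3, the smallest exact two-sided permutation p is 0.1, so no single gene could pass that test alone. Alternatives were 2 pseudocounts, 2 filters, 2 normalizations, 2 variance models, a replicate block and the omission of each library. A check of same-numbered libraries showed no pairing, but with 3 libraries a group it cannot exclude one. The members and lists were chosen with earlier results of these data known. The text gives every member; library values are given for genes past the test, the smallest p of a class without one, and further members chosen after their values were seen. From each further pathway list, up to 3 genes that rose and 3 that fell are named, by size of change. Positions are from GENCODE on mm10, and shared 150-base windows were counted between annotated transcripts. Depth is unknown from FPKM. One further result is not reported here.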

Additional observations from a re-analysis of the deposited data

How the results depend on the processing

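Under the 15 alternatives, Acadm, Crot and Cyp4a31 kept their calls in every one, the other 7 called genes lost theirs in at least 1, and 8 of the 31 uncalled genes passed in at least 1. No called gene changed direction. The fold changes of 7 uncalled genes (Acadl, Acadvl, Cd36, Cyp4a32, Eci2, Pdk4 and Slc25a20) changed sign in at least 1 alternative. Of the further pathway genes named, 12 of 27 kept their calls throughout with none reversed. Leaving out 1 library at a time gave 3 to 11 of the 41 genes higher (3 without med23Δli replicate 1 or 2, 5 without replicate 3, 11 without med23f/f replicate 2) and 0 to 2 lower, 3 to 6 more than 2-fold higher and 0 to 2 more than 2-fold lower. Over all genes, 3.35%, 4.07% and 4.84% were higher without med23Δli replicates 1, 2 and 3. Without med23f/f replicates 1, 2 and 3 the shares were 9.43%, 8.76% and 14.6%. The shares lower in these fits were 2.92% to 11.9%. Each such fit had fewer samples. Genes lower were 0 with no filter (4.83% of all genes), 0 with no trend (8.93%), 4 with quantile normalization (11.3%) and 1 with a robust fit (9.74%). Those more than 2-fold lower were 0 with no filter, no trend or a robust fit. Over all genes these fits gave 402 of 17752, 409 of 11956 and 413 of 11956. At an unadjusted p under 0.05, 11 to 20 of the 41 were higher and 2 to 4 lower over all settings (limma), against 14.4% to 22.2% and 13.1% to 19.9% of all genes. Same-numbered libraries had deviations that correlated at −0.02, −0.05 and −0.12, so no pairing by number was seen. With 3 libraries a group this check cannot exclude a pairing. With the replicate block, 6 of the 41 genes were higher, 1 was lower, 4 were more than 2-fold higher and 1 more than 2-fold lower. Over all genes 809 were then higher (6.77%) and 614 lower (5.14%), against 1384 and 1133 without the block. Cyp4a10 passed with the block (adjusted p = 0.0387). Over all 11927 to 11963 genes tested, leaving out 1 library gave 401 to 1750 higher, 349 to 1429 lower, 319 to 730 more than 2-fold higher and 268 to 529 more than 2-fold lower, and a pseudocount of 1 left 229 more than 2-fold lower against 412. The cause of these moves was not tested. The median log2 fold change of the 41 genes ranged from 0.27 with quantile normalization to 0.50 without med23Δli replicate 3. The FPKM carry no read counts, so no counting error could be given, and 3 libraries a group limit the precision.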
